A study of Homo sapiens with 6 samples.

Results

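Rab GTPases are the small membrane-bound switches that give each transport step of the cell its address. Bound to GTP, a Rab recruits effectors that move, tether and fuse vesicles. Exchange factors load the GTP, GTPase activating proteins end the signal, and an escort protein and a dissociation inhibitor carry the prenylated Rab to and from membranes. In epithelial tumours such as pancreatic ductal carcinoma, Rab proteins are studied for secretion, receptor recycling and cell polarity.

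All rows of the deposited gene table whose symbol is RAB followed by a number, with at most 1 letter and 1 further digit after it, were taken, which takes in pseudogenes such as RAB28P1. This gave 71 of 58825 genes, 63 of them protein-coding and 8 processed pseudogenes. The table came from PANC-1, a human pancreatic ductal carcinoma line, kept for 24 h with 40 µM maslinic acid (MA), a pentacyclic triterpene of olive skin (MA PANC-1, 3 samples), or without it (PANC-1, 3 samples). The study's methods call the 3 samples of a group biological replicates, and the labels do not say how their cultures were kept apart. Poly(A) RNA of 1 cell line was measured in bulk, so fewer cells with a transcript and less of it per cell cannot be told apart.

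The summed estimated counts of the samples overlapped between groups, at 56978375, 63984133 and 58181114 after MA and 70275355, 65607669 and 59422939 without it. In every sample this sum is above the number of valid reads that the study lists, so it is not the sequencing depth. The keratins KRT8 and KRT18 and the mesenchymal filament VIM were high, with mean levels of 197.8, 310.0 and 617.0 FPKM (fragments per kilobase of transcript, scaled to library size). KRT7 stood at 1.80 FPKM, and KRT19, a defining keratin of pancreatic duct cells, was near 0 at a mean of 0.0533 FPKM, which goes against a ductal keratin profile. The leucocyte gene PTPRC had counts only in MA PANC-1 sample 1 (8 counts, 0.0120 FPKM). The endothelial gene PECAM1 was near 0 at a mean of 0.0129 FPKM, and CD3E, PRSS1, CPA1, INS, GCG and ALB had no counts. MA PANC-1 sample 2 had the lowest score on the first principal component, which held 26.4% of the variance (scores -29.5, -73.6 and 16.2 in MA PANC-1 against 24.0, 18.1 and 44.9 in PANC-1). MA PANC-1 sample 1 lay between it and the rest, also apart from them, so leaving out sample 2 alone does not remove this structure. Sample 2 also had the highest count-weighted GC content, 52.2% against 50.9% to 51.4%, and the lowest normalization factor, 0.94. The counts of called and of non-overlapping Rab genes, and of called genes that act on Rab proteins, are therefore given with and without it.

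Of the 71 Rab genes, 53 reached a mean of 0.1 FPKM and were tested among 17774 genes. A few members held much of the summed level. RAB1B, which drives transport from the endoplasmic reticulum (ER) to the Golgi, led with a mean of 150.0 FPKM over the 6 samples and held 19.8% of the summed Rab level. Its values were 152.3, 175.3 and 133.9 FPKM in MA PANC-1 and 145.1, 145.0 and 148.3 FPKM in PANC-1. Next came RAB7A of late endosomes (70.2 FPKM), RAB11B of recycling endosomes (50.4 FPKM), RAB5C of early endosomes (49.9 FPKM) and RAB32 of lysosome-related organelles (48.8 FPKM). RAB11B, RAB5C and RAB32 lay closer together than the spread of RAB5C alone, so their order is not resolved. These 5 genes made up 48.8% of the summed level. In all, 18 tested members stood at 10 FPKM or more, 29 between 1 and 10 FPKM, and 6 below 1 FPKM. Among these 6 was RAB6C, an intronless copy of RAB6A, whose reads may be shared with its parent.

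The 18 untested members were near the floor. For 7 of them no count was listed in any sample, namely RAB19, RAB25, RAB28P1, RAB28P2, RAB28P3, RAB28P4 and RAB42P1, and 11 had counts with a mean below 0.1 FPKM. RAB25 and RAB17 are Rabs of polarised epithelia, and RAB17 reached no more than 0.0701 FPKM in any sample. RAB38, a close relative of the abundant RAB32, had counts in 2 samples, with 8 in MA PANC-1 sample 3 and 2 in PANC-1 sample 2. Of the 8 pseudogenes, RAB43P1 was tested, at 2.53 FPKM.

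**Figure D1:**
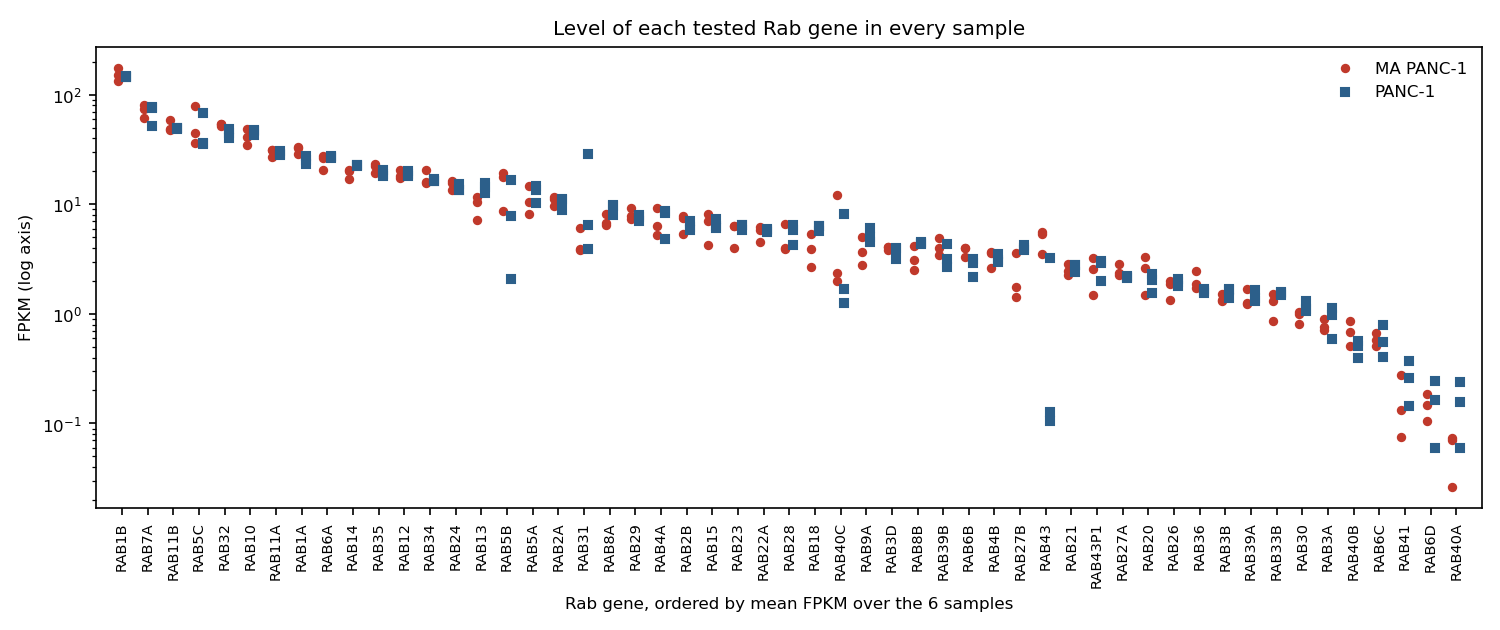
Level in FPKM (log axis) of the 53 tested Rab genes, ordered by their mean, with 1 point for each of the 3 MA PANC-1 samples (circles) and 3 PANC-1 samples (squares). Levels run from RAB1B at a mean of 150.0 FPKM to RAB40A at 0.104 FPKM, most genes have overlapping groups, and RAB31, RAB5B, RAB40C and RAB43 have samples far from their own group.

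Whether MA moved the Rab genes as a family was examined first on the family total. Rab genes took 0.307%, 0.287% and 0.288% of counts after MA and 0.294%, 0.305% and 0.276% without it, with overlapping groups. Each gene was compared by edgeR's quasi-likelihood test (TMM normalization, Benjamini-Hochberg adjustment over all 17774 genes), and log2 fold changes are MA PANC-1 over PANC-1. Of the 53 tested members, 27 had a positive and 26 a negative log2 fold change, with a median of 0.009 against -0.0017 over all tested genes, and 32 lay within 0.25 of 0. An unadjusted p below 0.05 was reached by 8 members (15.1%, against 11.2% of all tested genes). RAB1A, RAB32 and RAB6B were higher after MA (3 members; 5.37% of all tested genes were), and RAB13, RAB18, RAB27B, RAB14 and RAB8B were lower (5 members; 5.86% of all tested genes were). Without MA PANC-1 sample 2, 5 members passed (9.43%, against 10.3% of all tested genes), with RAB1A higher and RAB8A, RAB13, RAB14 and RAB18 lower. With each library's trend over GC content removed, 11 passed (20.8%, against 13.9% of all genes tested in that fit), 7 higher and 4 lower.

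In this edgeR fit no member passed the study's thresholds of fold change ≥ 2 or ≤ 0.5 and unadjusted p below 0.05, which 1.92% of tested genes passed. None passed an adjusted p of 0.05 in edgeR (0.0394% of tested genes). DESeq2 gave 0 members at an adjusted p of 0.05 and 7 at an unadjusted p below 0.05 (13.2%, against 12.1% of all tested genes). The FPKM values of the groups did not overlap for 12 members, 6 higher and 6 lower (22.6%, against 19.9% of all tested genes). These were the 8 called members together with RAB36, RAB43 and RAB27A, which were higher, and RAB30, which was lower. Without MA PANC-1 sample 2 the groups did not overlap for 18 members (34.0%, against 30.1% of all tested genes). In the exact two-sided permutation test over the 6 samples each of the 8 called members gave p = 0.1, the smallest that 3 against 3 allows. Over the 6 fits that each leave out 1 sample, RAB13 stayed below an unadjusted p of 0.05 in 5, RAB1A, RAB32 and RAB18 in 3, RAB6B and RAB14 in 2, and RAB27B and RAB8B in 1.

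**Figure D2:**
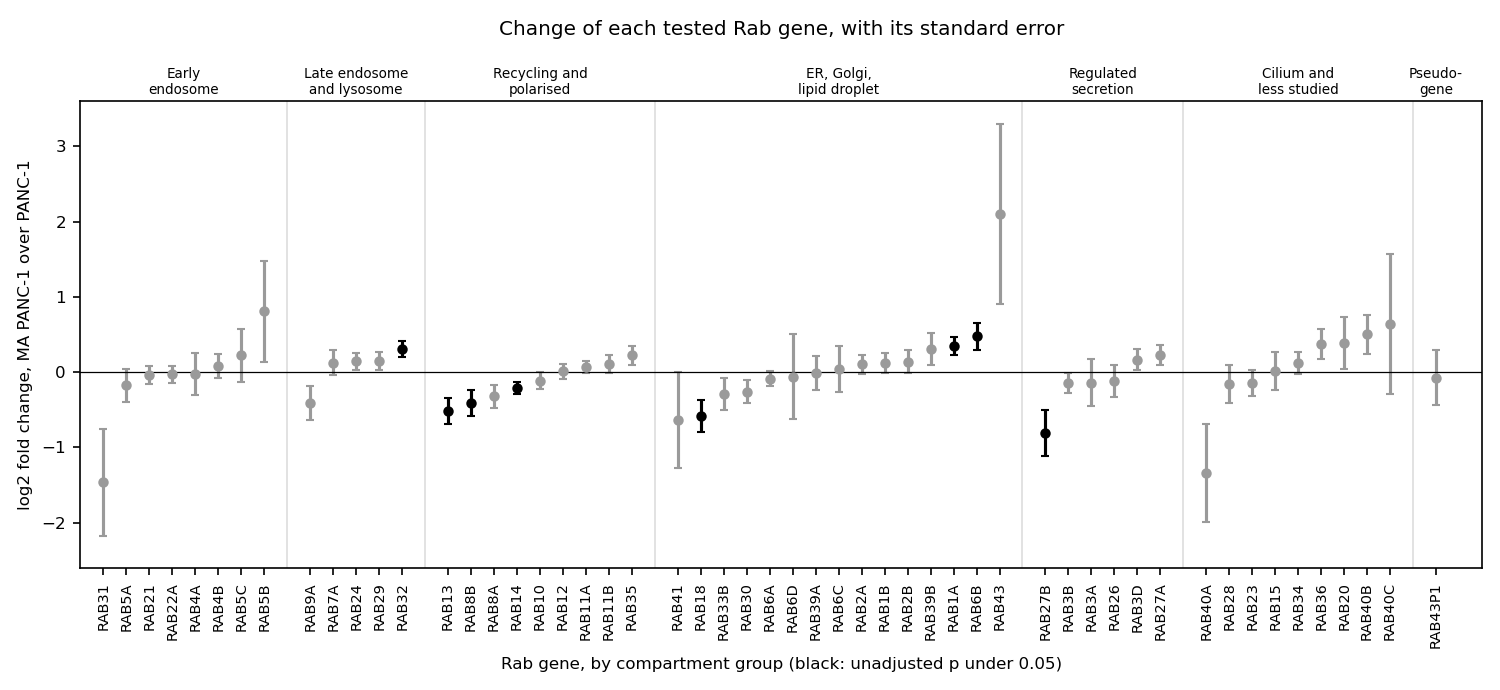
Log2 fold change (MA PANC-1 over PANC-1) of the 53 tested Rab genes with its standard error, grouped by compartment, with the 8 members at an unadjusted p below 0.05 in black. The called members lie between -0.81 (RAB27B) and 0.48 (RAB6B), and the genes farthest from 0, RAB43 at 2.10 and RAB31 at -1.46, have wide error bars, as does RAB40C at 0.65.

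The ER, Golgi and lipid droplet group was the largest, with 15 of 17 members tested, 2 higher and 1 lower at p below 0.05 (20%, against 11.2% of all tested genes) and a median log2 fold change of 0.04. RAB1A, the paralog of RAB1B that shares its role in ER-to-Golgi transport (chr2:65070696-65130331), measured 32.3, 33.0 and 28.5 FPKM in MA PANC-1 and 27.5, 23.1 and 25.3 FPKM in PANC-1. Every MA PANC-1 sample was above every PANC-1 sample, and the log2 fold change was 0.35 ± 0.12 (SE, n = 3 per group, edgeR unadjusted p = 0.0192, adjusted p = 0.421). The call was lost when MA PANC-1 sample 1, PANC-1 sample 2 or PANC-1 sample 3 was left out (unadjusted p = 0.0535, 0.076 and 0.0524). RAB6B, the less widely expressed form of the Golgi regulator RAB6A (chr3:133824235-133895882), measured 3.997, 3.96 and 3.28 FPKM in MA PANC-1 and 2.19, 3.17 and 2.93 FPKM in PANC-1. Its groups were apart by a small margin, between MA PANC-1 sample 3 and PANC-1 sample 2, with a log2 fold change of 0.48 ± 0.18 (edgeR unadjusted p = 0.0328, adjusted p = 0.432). RAB6A itself, at 24.9 ± 3.77 FPKM in MA PANC-1 and 27.0 ± 0.591 FPKM in PANC-1 (SD, n = 3), overlapped between groups.

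RAB18, which acts at the ER and at lipid droplets (chr10:27504174-27542237), was lower. It measured 5.39, 2.69 and 3.95 FPKM in MA PANC-1 and 6.35, 5.73 and 6.29 FPKM in PANC-1, so all 3 MA PANC-1 samples were below all PANC-1 samples and sample 2 was the lowest. The log2 fold change was -0.58 ± 0.22 (edgeR unadjusted p = 0.030, adjusted p = 0.431), and with the GC trend removed it was -0.32 (unadjusted p = 0.109). RAB1B did not separate the groups, with a log2 fold change of 0.12 ± 0.13 (edgeR unadjusted p = 0.402).

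In the group of recycling endosomes and polarised transport, 9 of 11 members were tested, none was higher and 3 were lower at p below 0.05 (33.3%, against 11.2% of all tested genes), with a median log2 fold change of -0.12. RAB13, a Rab of tight junctions and of surface delivery (chr1:153981617-153986358, minus strand), had the smallest p of the family. It measured 10.5, 7.23 and 11.6 FPKM in MA PANC-1 and 15.8, 12.8 and 14.2 FPKM in PANC-1. All MA PANC-1 samples were below all PANC-1 samples, and the log2 fold change was -0.52 ± 0.17 (edgeR unadjusted p = 0.0166, adjusted p = 0.414). A transcript on the same strand, AL358472, overlaps RAB13, and reads of the overlap can go to either. Its estimated counts were 523, 800 and 160 in MA PANC-1 and 202, 278 and 155 in PANC-1, so they were highest in the sample where RAB13 was lowest. With both summed, the log2 fold change was -0.28 (unadjusted p = 0.0354).

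RAB8B, which carries cargo to the plasma membrane (chr15:63189560-63267776), measured 3.10, 2.50 and 4.14 FPKM in MA PANC-1 and 4.54, 4.32 and 4.41 FPKM in PANC-1. MA PANC-1 sample 3 lay just below the PANC-1 samples and the others well below, with a log2 fold change of -0.42 ± 0.17 (edgeR unadjusted p = 0.0439, adjusted p = 0.440). With the GC trend removed RAB8B was at -0.24 (unadjusted p = 0.0449), and with a replicate block as well at -0.25 (unadjusted p = 0.0771). Its paralog RAB8A had a log2 fold change of -0.32 ± 0.15 that missed the threshold (edgeR unadjusted p = 0.0713), and MA PANC-1 sample 2 overlapped the PANC-1 range. It passed in 7 of the 12 alternatives with all 6 samples, among them removal of the GC trend (-0.39, unadjusted p = 0.0129), and without MA PANC-1 sample 2 (-0.47, unadjusted p = 0.00947). RAB14, which links early endosomes with the Golgi (chr9:121178133-121223014), measured 20.1, 16.9 and 20.3 FPKM in MA PANC-1 and 22.8, 22.3 and 22.9 FPKM in PANC-1. The PANC-1 samples were tight and the MA PANC-1 samples all lower, but by little, with a log2 fold change of -0.21 ± 0.08 (edgeR unadjusted p = 0.0404, adjusted p = 0.436). Removing the GC trend turned it to 0.04 (unadjusted p = 0.685). The call was also lost, at a similar value, in DESeq2 (-0.213, unadjusted p = 0.0656) and with a replicate block in edgeR (-0.215, unadjusted p = 0.0532). The groups overlapped for the abundant recycling Rabs. RAB11B had a log2 fold change of 0.11 ± 0.13, RAB11A of 0.07 ± 0.08 and RAB10, which serves surface delivery, of -0.12 ± 0.11. With the GC trend removed, RAB11A was at 0.20 (unadjusted p = 0.0207), RAB11B at -0.04 and RAB10 at 0.03.

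**Figure D3:**
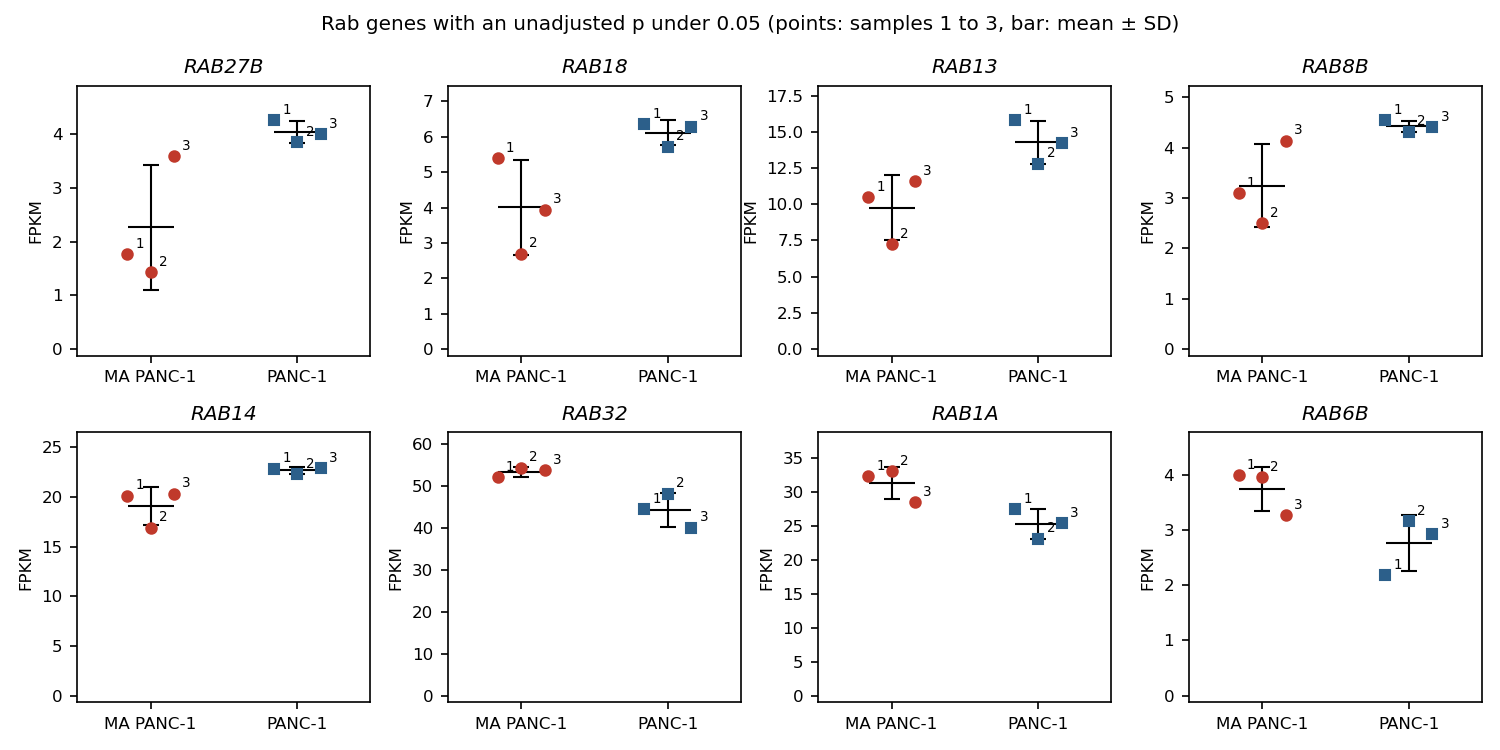
FPKM of the 8 Rab genes with an unadjusted p below 0.05 in each of the 6 samples (points numbered by sample, bars mean ± SD). The upper row and RAB14 are lower and RAB32, RAB1A and RAB6B higher in all 3 MA PANC-1 samples than in any PANC-1 sample, while MA PANC-1 sample 3 of RAB27B and RAB8B lies near the PANC-1 samples.

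Of the late endosome, lysosome and related organelle group, 5 of 8 members were tested and 1 was higher (20%, against 11.2% of all tested genes), with a median log2 fold change of 0.14. RAB32, a Rab of lysosome-related organelles and mitochondria (chr6:146543833-146554953), measured 52.0, 54.4 and 53.7 FPKM in MA PANC-1 and 44.5, 48.2 and 40.1 FPKM in PANC-1. The MA PANC-1 samples lay close together above all PANC-1 samples, with a log2 fold change of 0.31 ± 0.11 (edgeR unadjusted p = 0.0273, adjusted p = 0.430). RAB7A, the central Rab of late endosome and lysosome fusion (chr3:128726122-128814796), measured 74.6, 61.9 and 80.9 FPKM in MA PANC-1 and 77.3, 74.8 and 51.8 FPKM in PANC-1. Its groups overlapped, each with 1 low sample, and the log2 fold change was 0.12 ± 0.17 (edgeR unadjusted p = 0.478, adjusted p = 0.791). Without PANC-1 sample 3 it was -0.04. RAB24, linked to autophagy, had overlapping groups and a log2 fold change of 0.14 ± 0.11. It was 0.02 with the GC trend removed and 0.21 when summed with the overlapping gene MXD3.

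The early endosome group held no called member among its 8, all tested (against 11.2% of all tested genes), with log2 fold changes from -1.46 to 0.81 and a median of -0.03. RAB5A, which governs early endosome fusion (chr3:19947097-19985175), measured 14.7, 8.11 and 10.5 FPKM in MA PANC-1 and 13.4, 14.6 and 10.3 FPKM in PANC-1. The groups overlapped throughout, with a log2 fold change of -0.17 ± 0.22 (edgeR unadjusted p = 0.455, adjusted p = 0.779). It was -0.02 without MA PANC-1 sample 2, -0.41 without MA PANC-1 sample 1 and -0.05 with the GC trend removed. RAB31, a relative of RAB22A in traffic between the trans-Golgi network and endosomes (chr18:9708275-9862551), had the most negative value of all tested Rab genes. It measured 3.81, 6.09 and 3.92 FPKM in MA PANC-1 and 6.52, 28.9 and 3.90 FPKM in PANC-1. PANC-1 sample 2 held an estimated 12386 counts where the other 5 samples held 1415 to 2999, and PANC-1 sample 3 was within the MA PANC-1 range. The log2 fold change was -1.46 ± 0.71 (edgeR unadjusted p = 0.0765, adjusted p = 0.476). It lay between -1.003 and -0.905 in the limma fits and was -0.96 with the replicate block. It was -0.13 (unadjusted p = 0.702) without PANC-1 sample 2, and -1.79 (unadjusted p = 0.0464) and -1.90 (unadjusted p = 0.0175) without PANC-1 samples 1 and 3.

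The other early endosome members of high level also varied by library. RAB5B measured 19.1, 17.7 and 8.62 FPKM in MA PANC-1 and 2.07, 16.7 and 7.90 FPKM in PANC-1. PANC-1 sample 1 was the low one, and the log2 fold change of 0.81 ± 0.67 (edgeR unadjusted p = 0.266) became 0.34 without it. Without PANC-1 sample 2 it was 1.65 (unadjusted p = 0.0365). RAB5C measured 78.5, 44.7 and 36.3 FPKM in MA PANC-1 and 68.7, 36.1 and 35.4 FPKM in PANC-1, so sample 1 was high in both groups, and the log2 fold change was 0.22 ± 0.35 (edgeR unadjusted p = 0.550). It was -0.15 without MA PANC-1 sample 1 and 0.60 without PANC-1 sample 1. With the replicate block it was 0.216 (edgeR unadjusted p = 0.0862), and with the GC trend removed as well 0.096 (unadjusted p = 0.176).

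Across the family, 4 of the 47 tested members at 1 FPKM or more had a more than 3-fold range within a group, against 3.97% of the 11470 tested genes of that level. Besides RAB31 and RAB5B these were RAB40C and RAB43, chosen here after their values were seen. RAB40C, of the Rab subfamily that carries the SOCS box of ubiquitin ligases, measured 2.35, 12.1 and 2.00 FPKM in MA PANC-1 and 1.70, 1.26 and 8.20 FPKM in PANC-1. A single sample of each group was high, and the log2 fold change of 0.65 ± 0.93 (edgeR unadjusted p = 0.509) was -0.77 without MA PANC-1 sample 2 and 1.96 without PANC-1 sample 3.

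RAB43, a Golgi Rab, measured 5.34, 5.64 and 3.51 FPKM in MA PANC-1 and 0.104, 0.128 and 3.26 FPKM in PANC-1. PANC-1 samples 1 and 2 were near 0, while sample 3 lay just below the MA PANC-1 samples. The read-through gene ISY1-RAB43 covers RAB43 on the same strand, and its estimated counts were 0, 0 and 0 in MA PANC-1 and 651, 393 and 0 in PANC-1, so they appeared in the same samples where RAB43 was near 0. RAB43 alone had a log2 fold change of 2.10 ± 1.20 (edgeR unadjusted p = 0.122, adjusted p = 0.518), and both genes summed had 1.304 (unadjusted p = 0.0127). With the replicate block RAB43 alone had 3.99 (unadjusted p = 0.0384), and it passed the fold thresholds in the 4 limma fits. Without PANC-1 sample 3 the value for RAB43 alone was 5.38 and passed an adjusted p of 0.05.

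**Figure D4:**
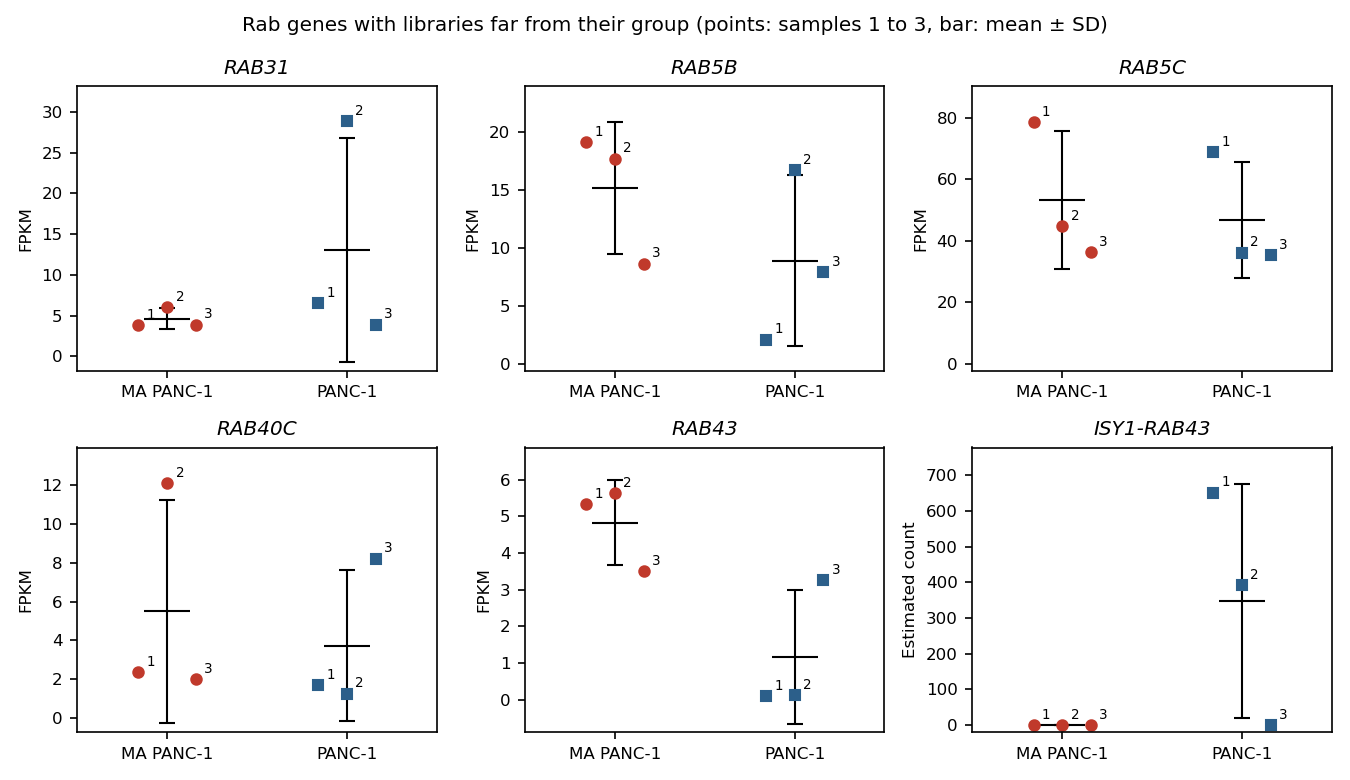
FPKM of RAB31, RAB5B, RAB5C, RAB40C and RAB43, and estimated counts of the read-through gene ISY1-RAB43, in each of the 6 samples (points numbered by sample, bars mean ± SD). Single samples stand far from their group, such as PANC-1 sample 2 of RAB31 at 28.9 FPKM, and ISY1-RAB43 has counts in PANC-1 samples 1 and 2, where RAB43 is lowest.

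The regulated secretion group had 6 of 8 members tested, with 1 lower (16.7%, against 11.2% of all tested genes) and a median log2 fold change of -0.13. RAB27B and its paralog RAB27A dock secretory granules and multivesicular endosomes at the plasma membrane. RAB27B (chr18:54717860-54895516) measured 1.77, 1.43 and 3.59 FPKM in MA PANC-1 and 4.26, 3.85 and 3.999 FPKM in PANC-1. All MA PANC-1 samples were lower, sample 3 only slightly, and the log2 fold change was -0.81 ± 0.31 (edgeR unadjusted p = 0.0324, adjusted p = 0.432). It stood at -0.59 (unadjusted p = 0.0895) without MA PANC-1 sample 2 and at -1.28 without MA PANC-1 sample 3. RAB27A (chr15:55202966-55319113, minus strand) measured 2.35, 2.26 and 2.84 FPKM in MA PANC-1 and 2.18, 2.23 and 2.12 FPKM in PANC-1. Its groups did not overlap but lay close, with a log2 fold change of 0.22 ± 0.13 that missed the threshold (edgeR unadjusted p = 0.141) and passed with the GC trend removed (0.33, unadjusted p = 0.0213). With its same-strand overlapping genes added, it was 0.05 (unadjusted p = 0.693). RAB3D, a granule Rab and the most abundant of the group, had a log2 fold change of 0.17 ± 0.14.

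The balance of paralogs was compared in 11 subfamilies, as the share of the subfamily's FPKM held by the member with the higher mean over all 6 samples. RAB27B held 42.9%, 38.7% and 55.9% of the RAB27 level in MA PANC-1 and 66.1%, 63.4% and 65.3% in PANC-1. All 3 MA PANC-1 shares were below all PANC-1 shares, with a difference of -19.1 percentage points (exact two-sided permutation p = 0.1, the smallest possible, adjusted p = 0.55 over the 11). In the other 10 subfamilies the groups overlapped. Among them, RAB31 held 39.6%, 57.1% and 38.8% of the level it shares with RAB22A in MA PANC-1 and 52.2%, 83.3% and 41.3% in PANC-1, with sample 2 the highest in both groups. RAB1B held 82.4% to 84.1% of the RAB1 level in MA PANC-1 and 84.1% to 86.3% in PANC-1, a difference of -2.22 percentage points (exact permutation p = 0.2). RAB5C held 69.9%, 63.4% and 65.5% of the RAB5 level in MA PANC-1 and 81.6%, 53.5% and 66.1% in PANC-1, with no separation.

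Promoters are shown for the member with the smallest p (RAB13), for the most abundant of the 3 members that were higher (RAB32) and for the pair whose shares did not overlap between groups (RAB27B and RAB27A). Each run is the 250 bases before the RefSeq start (GRCh38.p14) nearest to the gene's start in the table, read 5′ to 3′ on the gene's strand, with CG dinucleotides in capitals. RefSeq lists 1 start for RAB32, 2 each for RAB13 and RAB27B and 5 for RAB27A.
The windows are RAB13 (chr1:153986340-153986589, minus strand), RAB32 (chr6:146543583-146543832, plus strand), RAB27B (chr18:54717607-54717856, plus strand) and RAB27A (chr15:55319124-55319373, minus strand).
RAB13: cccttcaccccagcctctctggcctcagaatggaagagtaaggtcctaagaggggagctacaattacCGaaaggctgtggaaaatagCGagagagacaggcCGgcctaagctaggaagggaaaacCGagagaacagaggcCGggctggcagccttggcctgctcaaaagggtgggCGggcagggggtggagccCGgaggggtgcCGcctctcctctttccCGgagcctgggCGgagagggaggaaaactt
RAB32: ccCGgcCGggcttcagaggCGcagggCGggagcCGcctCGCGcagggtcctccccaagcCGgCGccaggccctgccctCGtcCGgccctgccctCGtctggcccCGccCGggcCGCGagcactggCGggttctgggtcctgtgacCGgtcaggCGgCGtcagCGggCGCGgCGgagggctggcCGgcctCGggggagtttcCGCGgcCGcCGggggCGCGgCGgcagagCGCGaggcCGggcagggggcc
RAB27B: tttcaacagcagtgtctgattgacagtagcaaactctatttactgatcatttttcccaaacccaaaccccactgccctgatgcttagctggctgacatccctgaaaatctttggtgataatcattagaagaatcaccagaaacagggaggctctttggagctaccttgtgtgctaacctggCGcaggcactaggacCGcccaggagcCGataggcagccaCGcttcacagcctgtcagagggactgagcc
RAB27A: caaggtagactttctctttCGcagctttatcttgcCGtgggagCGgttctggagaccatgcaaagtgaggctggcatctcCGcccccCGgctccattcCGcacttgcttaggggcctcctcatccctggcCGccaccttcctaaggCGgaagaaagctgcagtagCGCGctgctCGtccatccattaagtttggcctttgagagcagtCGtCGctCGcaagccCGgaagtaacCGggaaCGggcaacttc
These windows hold 10 CG dinucleotides for RAB13, 4 for RAB27B, 17 for RAB27A and 36 for RAB32, and the GC content runs from 50.4% for RAB27B to 82.0% for RAB32. A promoter was found for 50 of the 71 members. The median over the 43 tested ones was 23 CG dinucleotides, against 11 over the first listed promoter of 27305 genes, so RAB27B and RAB13 lie at the CpG-poor end of the family. The E-box CACGTG, which reads the same on both strands, was in the window of 5 of the 43 tested members (RAB24, RAB5A, RAB31, RAB4A and RAB21) and in 6.49% of all genes, and in none of those shown. These are matches of letters only, and promoter activity was not measured here.

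The remaining group, Rabs of cilia and macropinosomes and less studied members, had 9 of 11 members tested and none called (against 11.2% of all tested genes), with a median log2 fold change of 0.12. RAB34, of cilia and macropinosomes, stood at 17.5 ± 2.79 FPKM in MA PANC-1 and 16.6 ± 0.312 FPKM in PANC-1 (SD, n = 3). RAB15, an endosomal Rab, stood at 6.46 ± 2.00 and 6.62 ± 0.699 FPKM, and RAB23, a ciliary regulator of Hedgehog signalling, at 5.56 ± 1.38 and 6.28 ± 0.368 FPKM. The groups overlapped for all 3 genes.

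Genes that act on Rab proteins were counted in the same fit. Of 145 listed genes 138 were tested, and 17 had an unadjusted p below 0.05 (12.3%, against 11.2% of all tested genes), 5 higher and 12 lower, none at an adjusted p of 0.05. Without MA PANC-1 sample 2 there were 15 (10.9%, against 10.3% of all tested genes), 5 higher and 10 lower. With each library's GC trend removed there were 21, in a fit where 13.9% of all genes passed. In the main fit the median log2 fold change was 0.03. The counts by list and the values of single genes below come from that main fit. Their values with the GC trend removed or with a sample left out are not given here. Of the exchange factors, 33 of 35 were tested, with 2 higher and 2 lower (12.1%). SBF1 (log2 fold change 0.45 ± 0.16, edgeR unadjusted p = 0.0232) and MADD, an activator of RAB3 and RAB27 (0.28 ± 0.11, unadjusted p = 0.0314), were higher, and MADD was the most abundant at a mean of 18.7 FPKM. DENND5B was lower (-0.26 ± 0.10, unadjusted p = 0.0333). Of the 14 TRAPP subunits, all tested, TRAPPC1 was higher. It measured 83.3, 91.3 and 75.6 FPKM in MA PANC-1 and 69.3, 67.8 and 68.3 FPKM in PANC-1, with no overlap (log2 fold change 0.33 ± 0.11, edgeR unadjusted p = 0.0237).

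The GTPase activating proteins had 33 of 34 genes tested, with 3 lower and none higher (9.09%, against 11.2% of all tested genes). TBC1D8 had the smallest p, with a log2 fold change of -0.34 ± 0.10 (edgeR unadjusted p = 0.00903), followed by TBC1D4, which acts on the Rabs of glucose transporter traffic (-0.37 ± 0.12, unadjusted p = 0.0170), and TBC1D15, which acts on RAB7A (-0.35 ± 0.14, unadjusted p = 0.0400). The most abundant, TBC1D9B at 19.0 FPKM, had a log2 fold change of 0.21 ± 0.11 (unadjusted p = 0.0923).

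Effectors numbered 50 of 54 tested, with 2 higher and 6 lower (16%, against 11.2% of all tested genes). EHBP1, an effector of the RAB8 and RAB10 branch, had the smallest p. It measured 4.30, 3.46 and 5.10 FPKM in MA PANC-1 and 6.21, 6.58 and 6.31 FPKM in PANC-1, with all MA PANC-1 samples lower (log2 fold change -0.54 ± 0.13, edgeR unadjusted p = 0.00437). SYTL2, which binds RAB27 proteins, measured 3.25, 2.26 and 3.43 FPKM in MA PANC-1 and 4.51, 4.03 and 4.19 FPKM in PANC-1, also without overlap (-0.48 ± 0.15, unadjusted p = 0.0131). RIMS2, which binds RAB3 proteins, was lower at a low level, a mean of 0.141 FPKM (-0.79 ± 0.24, unadjusted p = 0.0134). KIF20A, the mitotic kinesin that binds RAB6 and the most abundant effector at 27.8 FPKM, had a log2 fold change of -0.17 ± 0.12 (unadjusted p = 0.184).

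All 8 genes of prenylation, escort and extraction were tested, and 1 was called (12.5%, against 11.2% of all tested genes), which also passed the study's thresholds, as 1.92% of all tested genes did. CHML, one of the escort proteins that present new Rabs for prenylation, measured 0.616, 0.257 and 0.622 FPKM in MA PANC-1 and 1.04, 1.19 and 1.17 FPKM in PANC-1. All MA PANC-1 samples were lower, with a log2 fold change of -1.16 ± 0.31 (edgeR unadjusted p = 0.00737, adjusted p = 0.388). CHML lies within OPN3 on the same strand, so reads can be split between them. Its paralog CHM had a log2 fold change of -0.17 ± 0.21.

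**Figure D5:**
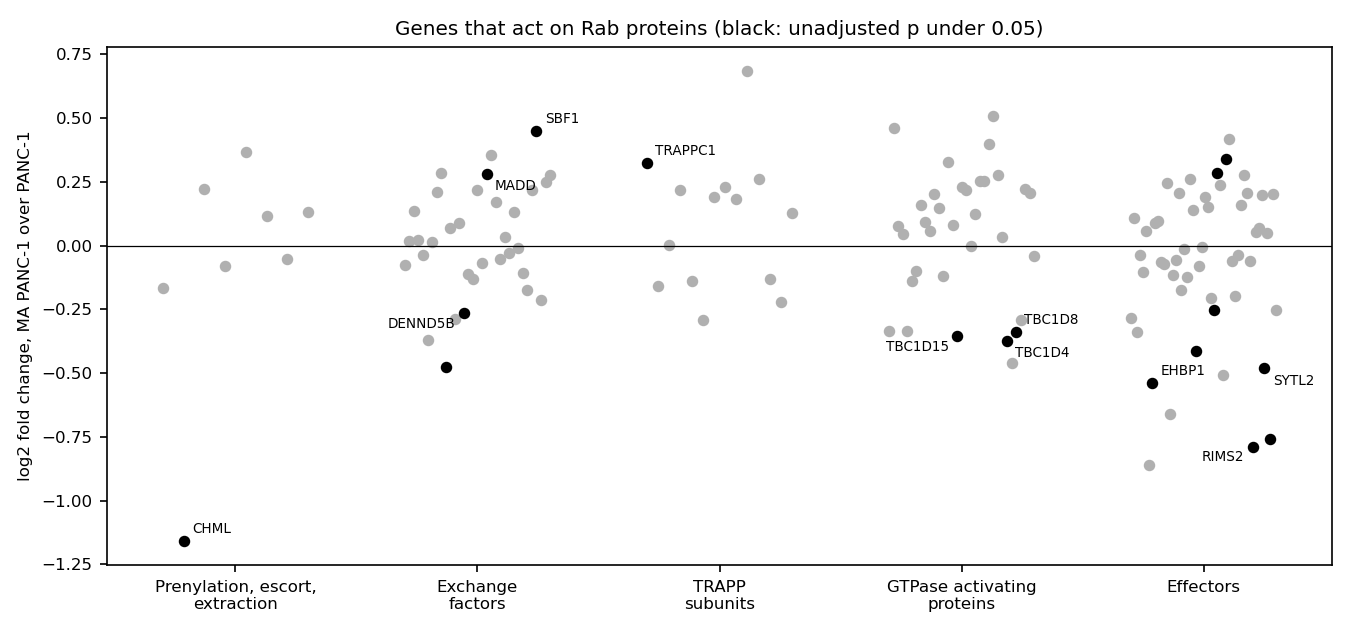
Log2 fold change (MA PANC-1 over PANC-1) of the 138 tested genes that act on Rab proteins, in 5 lists spread along the x axis, with the 17 at an unadjusted p below 0.05 in black and up to 3 named per list. CHML at -1.16 is the farthest from 0, and the other called genes lie between -0.79 and 0.45.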

How the data were processed

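The authors sequenced RNA from 6 PANC-1 samples and deposited 1 table with FPKM values and estimated counts per gene. The labels name cutadapt 1.9, HISAT2 2.0.4, StringTie 1.3.4d, edgeR and DESeq2 without roles. The build is not given in the sources used here, and positions match GRCh38 (36 of 71 identical in GENCODE 29). The deposited FPKM values served as levels, with values on genes without counts set to 0. Genes with a mean of 0.1 FPKM or more were tested on the deposited estimated counts, which were whole numbers, with edgeR 4.0.16 in R 4.3.3 (TMM, glmQLFit and glmQLFTest, treatment as the only term), and SE is the log2 fold change over the square root of F. The fit was also run on simulated counts with large changes and no GC trend, odd library or overlapping genes. That run does not test changes as small as most of those reported here. Alternatives were DESeq2 1.42.0, limma 3.58.1 on log2(FPKM + 0.1, 1 or 0.01) or quantile-normalized values, other filters, halved counts, a replicate block, overlapping genes summed, each sample left out and, added after seeing the data, removal of each library's GC trend. Members and gene lists were chosen with earlier results of these data known. Named were RAB31, RAB5A and RAB7A, members with an unadjusted p below 0.05, the 5 most abundant, up to 3 most abundant per compartment, and in each machinery list up to 3 genes by smallest p and the most abundant. Some genes that these rules cover are not reported here. The estimated counts sum to 56978375 to 70275355 per sample, more than the valid reads the study lists, so they overstate the reads behind the tests. Sequencing depth limits low genes, and proteins were not measured here.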

Additional observations from a re-analysis of the deposited data

How the results depend on the processing

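With all 6 samples, 7 to 11 members had an unadjusted p below 0.05 under the 12 alternatives, against 8 (12.5% to 20.8%, against 7.78% to 13.9% of all genes tested in those fits). RAB13, RAB1A, RAB32 and RAB27B passed in all 12. RAB14 reversed when the GC trend was removed (0.04 without and 0.034 with the replicate block), as did RAB1B (-0.032 and -0.033) and RAB11B (-0.040 and -0.041). Other members turned as well, among them RAB21, from -0.04 to 0.35 with the GC trend removed (edgeR unadjusted p = 0.0378). RAB14 also lost its call in DESeq2 and with the replicate block alone. RAB6B (0.38) and RAB8B (-0.25) lost their calls with the GC trend removed together with the block, as did RAB18 with the GC trend removed, with or without the block. The cause was not tested. Leaving out 1 sample gave 3 to 11 members at p below 0.05 (5.66% to 20.8%, against 6.63% to 18.1% of all tested genes). In these fits 0 to 2 members were past the fold thresholds (against 0), and the median log2 fold change was -0.016 to 0.05. The share of all tested genes past the fold thresholds was counted only in the main fit (1.92%). Leaving out 1 sample also gave 6 to 38 genes that act on Rab proteins (against 17), in fits where 6.63% to 18.1% of all tested genes passed. No member of the 8 kept its call in all 6 of these fits, which have fewer samples. RAB7A ranged from -0.041 to 0.22, RAB1B from -0.031 to 0.23, RAB11B from -0.04 to 0.18, RAB5C from -0.15 to 0.60 and the RAB5C share from -7.56 to 6.46 percentage points. For RAB10 the range was -0.22 to -0.04.

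Past the fold thresholds stood 1 member (RAB43) in each of the 4 limma fits and with overlapping genes summed, 2 (RAB40A and RAB43) with the replicate block, and 1 (RAB40A) with the GC trend removed together with the block. The share of all tested genes past these thresholds was not counted in these fits, so these members cannot be set against it. It was 1.92% in the main fit. The median log2 fold change of the members was -0.028, -0.027 and -0.029 in the limma fits with 0.1, 1 and 0.01 added, 0.041 with the GC trend removed and 0.035 with the block as well. Limma with 0.01 added called 11 genes that act on Rab proteins, in a fit where 10.9% of all tested genes passed. Same-numbered samples deviated together only weakly (r = 0.029, 0.050 and 0.072), though each correlated best with its own number, so the numbers were not taken as pairs. The replicate block gave 10 members at p below 0.05 (4 higher, 6 lower) and 2215 genes in all against 1995.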

Other observations

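Genes that overlap a Rab gene on the same strand took very unequal counts in some samples. The read-through gene RAB4B-EGLN2 had estimated counts of 0, 1001 and 8 in MA PANC-1 and 28, 34 and 24 in PANC-1, while RAB4B, a Rab of early endosomes, had 982, 794 and 989 in MA PANC-1 and 985, 956 and 989 in PANC-1. The log2 fold change of RAB4B was 0.08 alone and 0.46 with its overlapping genes summed (edgeR unadjusted p = 0.0939). For RAB27A the overlapping gene with most counts was PIGBOS1, which covers its start, with 722, 745 and 898 in MA PANC-1 and 859, 1110 and 926 in PANC-1. RAB3D had 0.17 alone and 0.01 when summed with TMEM205 and AC011472. These 3 genes were chosen after their values were seen.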
